A study of Mus musculus with 12 samples.

Results

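The genes described here encode the proteins of the mitochondrial ribosome, measured by RNA sequencing in mouse embryonic fibroblasts (MEFs), connective tissue cells grown from embryos. Members were all gene symbols made of Mrpl or Mrps and digits, with an optional last letter, which gave 76 of the 23366 symbols in the count table. Of these, 47 were named Mrpl, for proteins of the large subunit, and 29 were named Mrps, for proteins of the small subunit. The series sequenced C57BL/6 cells at passages 3 to 5, either wild type (WT) or carrying a knockout (KO) of Carm1, which encodes an arginine methyltransferase that acts as a coactivator of transcription. The 4 groups, of 2 libraries each, were WT and KO cells in rich medium with 10% serum, and the same genotypes after 18 h without glucose in medium with 10% dialyzed serum (glucose starvation). The study compared gene expression between these genotypes and media, with starvation-induced autophagy as its subject. The labels give no rich-medium culture at 18 h, and they do not say whether replicates were separate cultures, so the p-values below speak only of the spread between libraries, which may be technical. They also do not give the part of Carm1 removed or the number of embryos behind a genotype.

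Mitochondria keep a ribosome of their own, which translates the respiratory chain and ATP synthase subunits encoded by mitochondrial DNA. Its RNA comes from mitochondrial DNA, but every one of its proteins is encoded in the nucleus, translated in the cytosol and imported. Some of these proteins descend from bacterial ribosomal proteins, and others are found only in mitochondrial ribosomes. A few names mislead: the products of Mrps30 and Mrps18a sit in the large subunit, and the product of Mrps36 is now known as a component of the 2-oxoglutarate dehydrogenase complex. In fibroblasts, as in other dividing cells, these genes are expressed throughout.

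The sequences upstream of 7 members are printed first, because the results below turn on these genes. They are RefSeq promoters of the mouse build GRCm38.p6, read 5′ to 3′ on the gene's strand up to or just past the start of transcription. Of 76 members, 67 had a promoter entry. Capitals mark matches to CCGGAAG, the core bound by ETS factors such as GABP, or to the site of nuclear respiratory factor NRF1 (GCGCA and GCGC with any base between), on either strand; both factors are known regulators of genes for mitochondrial proteins. A match is a description of the letters and was not tested for binding. Mrpl41, which also fell in starved WT cells, is not printed, and its window holds no match. The marked match of Mrpl18 begins 240 bases before its start, at the start of Tcp1 on the other strand (237 bases between the starts). The first 4 belong to genes that fell in starved WT cells: Mrpl18 (chr17:12916092-12916341, minus strand), Mrps21 (chr3:95871489-95871634, minus strand), Mrpl33 (chr5:31613831-31613960, plus strand) and Mrpl51 (chr6:125192080-125192199, plus strand).
Mrpl18: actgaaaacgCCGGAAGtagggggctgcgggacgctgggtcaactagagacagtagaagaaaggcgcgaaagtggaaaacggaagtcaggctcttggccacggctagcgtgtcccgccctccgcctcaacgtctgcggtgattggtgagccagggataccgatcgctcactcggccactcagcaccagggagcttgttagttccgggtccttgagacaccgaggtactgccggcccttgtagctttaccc
Mrps21: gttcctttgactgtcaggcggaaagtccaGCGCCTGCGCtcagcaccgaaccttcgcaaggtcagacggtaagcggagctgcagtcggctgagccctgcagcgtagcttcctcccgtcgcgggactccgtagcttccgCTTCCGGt
Mrpl33: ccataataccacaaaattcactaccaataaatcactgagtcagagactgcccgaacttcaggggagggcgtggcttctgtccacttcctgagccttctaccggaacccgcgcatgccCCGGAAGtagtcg
Mrpl51: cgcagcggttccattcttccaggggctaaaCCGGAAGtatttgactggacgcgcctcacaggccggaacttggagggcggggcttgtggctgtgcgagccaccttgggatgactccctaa
The next belong to Mrps9 (chr1:42851113-42851242, plus strand) and Mrpl49 (chr19:6057756-6057946, minus strand), whose starvation responses differed between the genotypes. The Mrpl49 stretch is the whole interval of 191 bases to the divergent start of Fau, which encodes a ubiquitin-like protein fused to a cytosolic ribosomal protein.
Mrps9: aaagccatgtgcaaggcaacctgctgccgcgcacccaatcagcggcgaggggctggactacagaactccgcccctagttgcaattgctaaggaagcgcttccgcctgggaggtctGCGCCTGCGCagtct
Mrpl49: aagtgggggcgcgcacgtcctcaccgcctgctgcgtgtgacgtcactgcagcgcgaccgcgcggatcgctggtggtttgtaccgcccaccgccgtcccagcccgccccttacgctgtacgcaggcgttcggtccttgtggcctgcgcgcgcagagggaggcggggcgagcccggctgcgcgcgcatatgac
The last is the interval of 41 bases between the starts of Mrpl46 (chr7:78783090-78783130, minus strand) and Mrps11, members transcribed away from each other.
Mrpl46: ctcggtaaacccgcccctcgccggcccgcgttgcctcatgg

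Over the promoters of the members, windows of 300 bases around the start, CCGGAAG stood in 24 of 73 (32.9%), against 8.86% of the 32851 promoters of all genes. The NRF1 site stood in 12 of 73 (16.4%), against 4.6% of all promoters. The E-box CACGTG, a site of MYC family factors, stood in 7 of 73 promoters (9.59%) against 7.15%, and by gene in 5 of 67, since the 3 entries of Mrpl2 have starts close together. TGATGNAA, a site of the stress factors CHOP and ATF4, stood in 0 of 73 member promoters and in 3.97% of all. No motif contains another. Among members with an entry, CCGGAAG stood in 4 of the 5 that fell in starved WT cells, in 4 of the 14 that rose and in 16 of the 48 without a call; these counts are descriptions. The absence of a match says only that the letters are not in the window.

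Library totals ran from 8447014 counts (KO rich replicate 1) to 28155431 counts, and the lowest total of any member over the 8 libraries was 1216 counts. Levels are CPM, counts divided by the scaled library size, and changes are log2 fold changes ± standard error, with Benjamini-Hochberg adjusted p-values from edgeR's quasi-likelihood test over 13882 genes. Carm1 stood at 164 to 207 CPM in the WT libraries and 48.1 to 70.8 CPM in the KO libraries. The KO rich replicates lay apart: over members, log2 ratios of one replicate to the other had a standard deviation of 0.687 in that pair and 0.103 to 0.128 in the other pairs. Markers of cell type also differed between the genotypes. The 10 fibroblast markers summed to 7865 to 11033 CPM in WT and 15532 to 18718 CPM in KO libraries. Fn1 alone stood at 2594 to 3419 CPM in WT and 9079 to 10588 CPM in KO libraries. The fibroblast markers Dcn and Thy1 were under 1 CPM in each WT library, and Lum was at 0 there, against 1172 to 1954 CPM of Dcn and 124 to 180 CPM of Thy1 in KO libraries. Of the 10, 7 were called higher and 1 lower in the KO in rich medium, and 8 and 1 after starvation. The marker that was lower was the collagen gene Col1a1, at 1400 to 2807 CPM in WT and 636 to 1206 CPM in KO libraries. The 6 endothelial markers summed to 2.09 to 5.02 CPM in WT and 132 to 245 CPM in KO libraries, in the KO nearly all from Cdh5, which was at 0 in 2 WT libraries. The endothelial markers disagreed: Kdr was lower in the KO, at 1.78 to 4.50 CPM in WT against 0 to 0.0861 CPM, Pecam1 was at 0.239 to 0.285 CPM against 3.52 to 5.54 CPM, Tek was at most 0.215 CPM, and Emcn and Tie1 were at 0 in all 8 libraries. The 4 neural markers summed to 101 to 117 CPM in WT and 238 to 374 CPM in KO libraries, nearly all from Tubb3 and Map2. Leukocyte, epithelial and skeletal muscle markers each summed to at most 7.01 CPM in any library. The neural, leukocyte and epithelial lists also held genes called between the genotypes, not all in the same direction. The part of these markers in the genotype differences below was not tested, and in bulk RNA, fewer cells of a type and less RNA per cell cannot be told apart.

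Summed over all members, mitochondrial ribosomal protein RNA was 2886 ± 47.4 CPM in WT rich cells and 3340 ± 146 CPM in WT starved cells (mean ± SD, n = 2). The KO sums were 2642 ± 252 CPM in rich and 3132 ± 12.7 CPM in starved cells. In both genotypes each starved library lay above each rich library. The 2 sums did not move in parallel. The Mrpl sum divided by the Mrps sum was 1.75 and 1.77 in WT rich libraries and 1.54 and 1.53 in WT starved libraries, and in the KO it was 1.56 and 1.63 in rich against 1.43 and 1.45 in starved libraries. The ratio was thus lower in every starved library than in either rich library of its genotype. Sums are weighted to genes with many counts. Per gene, the median log2 fold change on starvation in WT cells was 0.20 for Mrpl and 0.30 for Mrps genes. In KO cells the order was the other way, 0.225 for Mrpl and 0.18 for Mrps genes. These sums and medians were not tested.

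**Figure D1:**
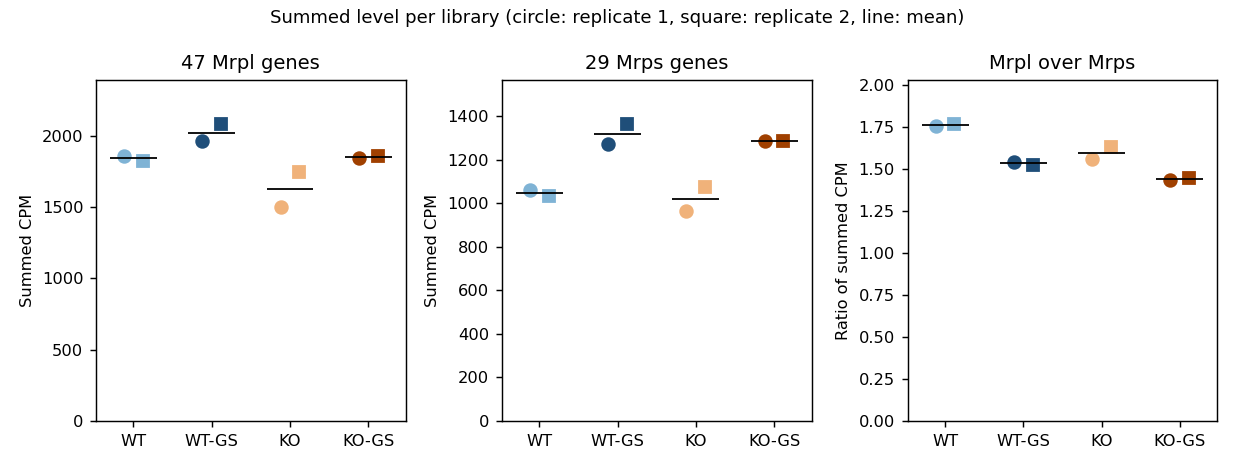
Summed CPM of the 47 Mrpl and 29 Mrps genes and their ratio in each library (points), with group means as lines. Starved libraries show higher sums than rich libraries of the same genotype, and lower ratios, 1.54 and 1.53 against 1.75 and 1.77 in WT.

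Starvation of WT cells raised 14 members and lowered 5, and 57 passed no threshold. The shares called among all genes tested were 14.8% higher and 18% lower, against 18.4% and 6.58% of the members. The median log2 fold change over members was 0.20, against 0 over all genes. The rich and starved libraries were apart in 62 members, as in 81.8% of all genes. Of the 14 that rose, 6 were bacterial-type large subunit genes (of 29), 0 were mitochondria-specific large subunit genes (of 18), 4 were bacterial-type small subunit genes (of 16), 2 were mitochondria-specific small subunit genes (of 9), and the others were Mrps30 and Mrps18b. The counts depended on the KO rich pair, since the 4 groups share one estimate of the spread. The fit of the 4 WT libraries alone called 39 higher and 18 lower, which include the 14 and 5. Among all genes that fit called 36.4% higher and 35.6% lower. Without any one of the 4 WT libraries, fewer members and fewer of all genes were called, and the member median was 0.13 to 0.26.

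**Figure D2:**
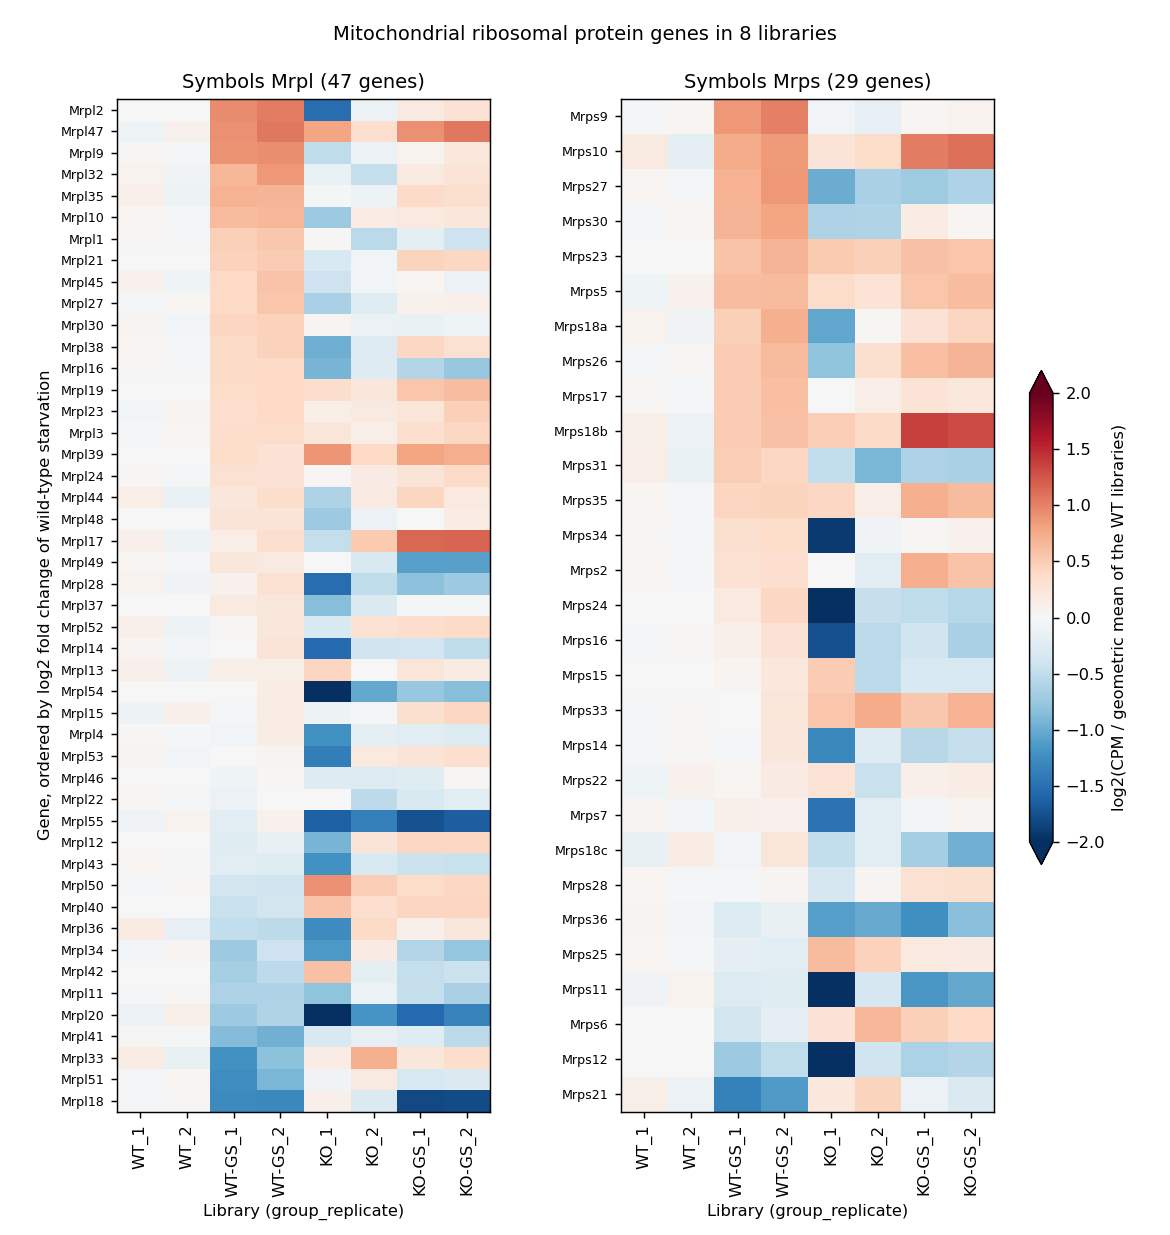
Log2 CPM of each of the 76 members in each library, less the gene's mean over the WT rich pair; colours end at the limits of the scale. Most members are shifted a little, and the KO rich replicates differ from each other in more members than other pairs.

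Of the members that rose, Mrps9, whose product is the counterpart of a bacterial small subunit protein of the ribosome head, kept its call without any single library. Mrps9 stood at 35.9 and 37.8 CPM in WT rich libraries and at 67.2 and 74.2 CPM in WT starved libraries. Both starved libraries were far above both rich libraries. The rise was 1.92-fold (log2 0.94 ± 0.13, adjusted p = 0.00244). Mrpl47, the mitochondrial form of bacterial L29, which lies near the exit of the peptide tunnel, stood at 10.0 and 11.3 CPM in rich and 20.0 and 22.1 CPM in starved WT libraries, without overlap (0.98 ± 0.20, adjusted p = 0.00984). Mrpl9, the counterpart of bacterial L9, stood at 48.0 and 46.4 CPM and rose to 87.9 and 89.7 CPM (0.91 ± 0.16, adjusted p = 0.00561). Mrps10, a small subunit head protein, went from 50.9 and 39.9 CPM to 75.0 and 81.4 CPM (0.78 ± 0.15, adjusted p = 0.00857). The groups of these 4 genes do not overlap. The call of Mrpl47 ended without any one WT library, that of Mrpl9 without either rich or the second starved WT library, and that of Mrps10 without the second rich or either starved WT library. Their log2 values over the libraries left out were 0.90 to 1.07, 0.89 to 0.94 and 0.62 to 0.97. The other 10 that rose were Mrps27 (0.78), Mrpl32 (0.77), Mrps30 (0.73), Mrpl35 (0.68), Mrps23 (0.63), Mrps5 (0.62), Mrps17 (0.56), Mrps18b (0.54), Mrpl21 (0.49) and Mrpl30 (0.44), in log2 units. Mrpl2, with a value of 0.99 ± 0.37, did not pass (adjusted p = 0.0801).

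The 5 members that fell in starved WT cells were Mrpl18, Mrps21, Mrpl51, Mrpl33 and Mrpl41. Mrpl18 encodes the counterpart of bacterial L18, a protein that binds 5S ribosomal RNA in bacteria. It stood at 70.3 and 72.5 CPM in rich and 29.6 and 29.1 CPM in starved WT libraries. The pairs are tight and far apart, a 2.43-fold fall (log2 -1.28 ± 0.16, adjusted p = 0.00159). Mrps21, a small subunit protein of the bacterial S21 family, stood at 34.4 and 29.4 CPM in rich and 12.4 and 14.4 CPM in starved libraries (-1.25 ± 0.17, adjusted p = 0.00245). Mrpl51, a mitochondria-specific large subunit protein, stood at 55.0 and 58.5 CPM and fell to 23.9 and 29.95 CPM (-1.07 ± 0.16, adjusted p = 0.00334). For both, each starved library was below each rich one. The calls of Mrpl18, Mrps21 and Mrpl51 held without any single library. Mrpl33, the counterpart of bacterial L33, stood at 23.9 and 19.6 CPM in rich and 9.41 and 12.2 CPM in starved libraries (-1.01 ± 0.24, adjusted p = 0.0181); without any one WT library the call ended, at values of -1.20 to -0.83. Mrpl41, a mitochondria-specific large subunit protein, stood at 20.2 and 19.4 CPM in rich and 10.8 and 10.2 CPM in starved libraries (-0.92 ± 0.17, adjusted p = 0.00692), and its call also ended without any one WT library.

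Starvation of KO cells raised 6 members and lowered 2, against 8.44% higher and 9.77% lower among all genes, which are 7.89% and 2.63% of the members. The median over members was 0.22, against 0 over all genes, and the libraries were apart in 46 members and in 55.3% of all genes. Without either KO rich replicate more members and more of all genes were called, and without either KO starved library fewer of both. The member median was 0.15 without KO rich replicate 1 and 0.38 without replicate 2, against 0 and 0.09 over all genes. A fit of the 4 KO libraries alone called 0 members and 0 of all genes with edgeR, where 10 members had an unadjusted p under 0.05. Mrpl18 was the only member whose call held without any single library: 76.7 and 58.7 CPM in rich against 20.5 and 20.6 CPM in starved KO libraries, a 3.28-fold fall (-1.71 ± 0.16, adjusted p = 0.00158). The starved pair lies far below both rich libraries, as it did in WT cells.

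Mrps18b, one of the Mrps18 paralogs and a small subunit protein, rose in KO cells from 80.2 and 73.9 CPM to 147 and 140 CPM (0.90 ± 0.13, adjusted p = 0.00602). Its starved libraries were the highest of the 8. Mrps2, a bacterial-type small subunit protein, went from 61.8 and 53.2 to 103 and 91.8 CPM (0.76 ± 0.14, adjusted p = 0.011). Mrpl38, a mitochondria-specific large subunit protein, went from 32.5 and 53.5 to 84.5 and 79.0 CPM (0.92 ± 0.22, adjusted p = 0.0313). In both, starved libraries lay above rich ones, although the Mrpl38 rich replicates were far apart. The other 3 that rose, Mrps10 (0.75), Mrps30 (0.71) and Mrpl21 (0.60), also rose in WT cells. The calls of these 6 ended without either KO starved library. Those of Mrpl38, Mrps10, Mrps30 and Mrpl21 also ended without some of the WT libraries. Over all single libraries left out, values were 0.85 to 0.98 for Mrps18b, 0.67 to 0.89 for Mrps2 and 0.63 to 1.34 for Mrpl38. Mrpl17 had 28.1 and 56.0 CPM in rich and 86.8 and 87.3 CPM in starved KO libraries, and with 1.04 ± 0.29 did not pass (adjusted p = 0.0505).

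**Figure D3:**
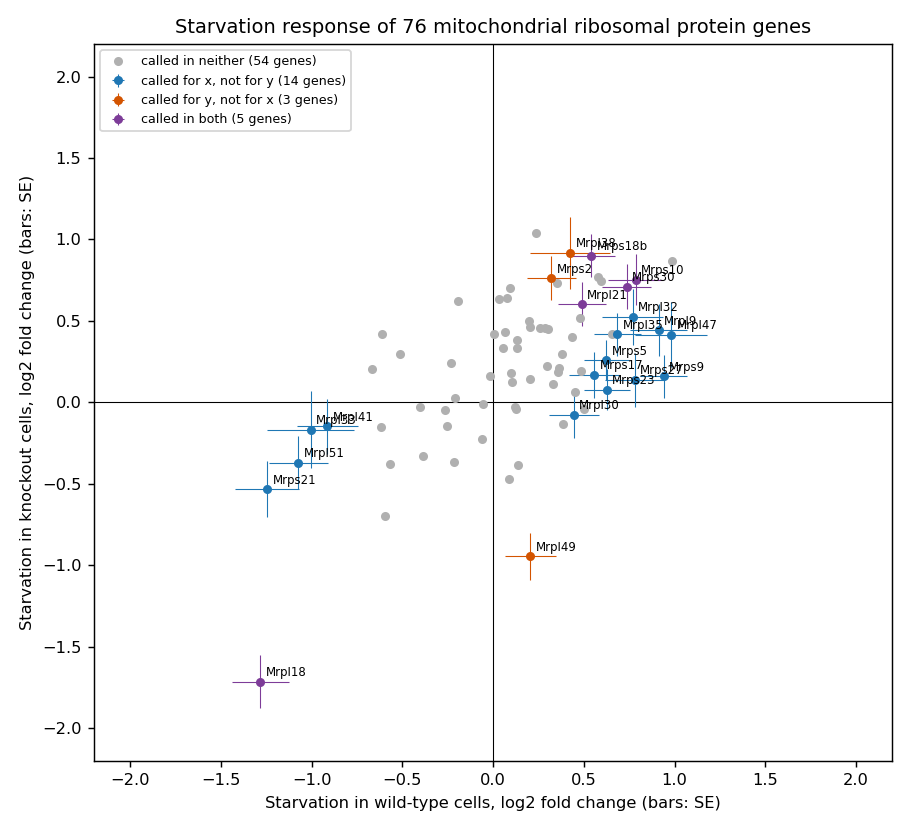
Log2 fold change on starvation of each member in WT (x) and KO cells (y), marked by the comparison in which it was called. Mrpl18 lies lowest in both, and Mrpl49 lies below 0 on the KO axis (-0.95) and above it on the WT axis (0.20).

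Across the 76 genes, 61 had the same sign of change on starvation in WT and KO cells (80.3%; 58.6% of all genes), with a correlation of 0.587 against 0.221 over all genes; genes are not replicates, so this is a description. The difference between the responses was itself tested, and 2 members passed it, both lower in the KO (background 7.43% higher and 5.91% lower), with 9 members at an unadjusted p under 0.05. Mrpl49, a mitochondria-specific large subunit protein, stood at 75.5 and 71.8 CPM in WT rich, 86.0 and 83.6 CPM in WT starved, 74.2 and 59.7 CPM in KO rich and 34.6 and 34.8 CPM in KO starved libraries. The KO starved pair alone was low, less than any of the other 6 libraries. The responses were 0.20 ± 0.14 in WT (adjusted p = 0.309) and -0.95 ± 0.14 in KO cells (adjusted p = 0.00658), and they differed by -1.15 ± 0.20 (adjusted p = 0.0129). Mrps9, described above in WT cells, stood at 35.4 and 32.9 CPM in KO rich and 37.7 and 38.6 CPM in KO starved libraries, close to the WT rich level. Its KO response was 0.16 ± 0.13, and the difference was -0.78 ± 0.19 (adjusted p = 0.0364). Both calls of a difference ended without any single library of the 6 outside the KO rich pair. Over all single libraries left out, values were -1.29 to -0.94 for Mrpl49 and -0.84 to -0.68 for Mrps9. The Mrps9 call also ended with a replicate block (-0.78, adjusted p = 0.0617), with no filter (-0.75, adjusted p = 0.071) and with limma-voom and quality weights (-0.75, adjusted p = 0.0926), which the Mrpl49 call did not.

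Mrpl18 and Mrpl49 share their loci with other genes, and the sources used here do not give whether reads were counted by strand. Mrpl18 overlaps Tcp1, a chaperonin subunit gene, which stood at 642 to 833 CPM in the 8 libraries and changed in no comparison (0.07 ± 0.15 in WT starvation). Mrpl49 overlaps Syvn1, which encodes a ubiquitin ligase of the endoplasmic reticulum. Syvn1 rose on starvation in WT (2.30 ± 0.34, adjusted p = 0.00292) and KO cells (1.28 ± 0.33, adjusted p = 0.0385). Syvn1 was lower in the KO than in WT cells in rich medium (-1.04 ± 0.33, adjusted p = 0.0384) and after starvation (-2.07 ± 0.34, adjusted p = 0.00183), the latter as for Mrpl49, and its response difference was -1.02 ± 0.46 (adjusted p = 0.189), of the same sign as that of Mrpl49. Within KO starvation the 2 genes had opposite signs. In all, the spans of 19 members overlap another protein-coding gene in GRCm38.p6. Their part in these values was not tested.

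In rich medium, 8 members were higher and 8 lower in KO than in WT cells, against 23.4% and 20.7% of all genes; as shares of the members these are 10.5% each. The median over members was -0.19, 51 of 76 had a negative value, and the genotypes' libraries were apart in 50 members and in 69.9% of all genes. A fit of these 4 libraries alone called 0 members higher and 3 lower, against 13.2% and 11.4% of all genes. Without either KO rich replicate more members and more of all genes were called. The member median was then -0.16 without replicate 1 and -0.33 without replicate 2, against -0.03 and -0.12 over all genes. Mrpl55, a small mitochondria-specific large subunit protein, stood at 11.99 and 13.3 CPM in WT and 4.06 and 4.92 CPM in KO libraries. The pairs were well apart (-1.47 ± 0.21, adjusted p = 0.0015). Mrps36 stood at 18.4 and 17.1 CPM in WT and 8.24 and 8.86 CPM in KO libraries (-1.05 ± 0.19, adjusted p = 0.00459). Among the genes named for this comparison, these held their call without any single library, and in each the KO pair lay well below the WT pair. With limma-voom and quality weights both calls ended (-1.43, adjusted p = 0.115 for Mrpl55; -1.01, adjusted p = 0.163 for Mrps36). Mrpl20, the counterpart of bacterial L20, stood at 62.1 and 73.1 CPM against 12.7 and 29.6 CPM (-1.65 ± 0.35, adjusted p = 0.00823), and Mrpl54 at 40.2 and 40.5 CPM against 9.11 and 19.8 CPM (-1.45 ± 0.32, adjusted p = 0.00941). The KO replicates of both genes were far from each other though both were below the WT pair, and both calls ended without WT replicate 2, with ranges of -2.43 to -1.24 and -2.16 to -1.07 over single libraries left out. With limma-voom both kept their calls (-1.49, adjusted p = 0.0172 for Mrpl20, and -1.29, adjusted p = 0.026 for Mrpl54). In the fit of the 4 libraries alone the Mrpl54 call ended and that of Mrpl20 held.

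On the higher side, Mrpl50, a mitochondria-specific large subunit protein, stood at 39.9 and 41.4 CPM in WT and 76.9 and 57.3 CPM in KO rich libraries (0.72 ± 0.17, adjusted p = 0.0115). Mrps33 (0.66 ± 0.15), Mrpl39 (0.65 ± 0.17) and Mrps25 (0.55 ± 0.12) followed. For these 4 genes each KO library was above each WT library, and the calls ended without either WT replicate. Over all single libraries left out, values were 0.45 to 0.91 for Mrpl50, 0.55 to 0.70 for Mrps33, 0.35 to 0.87 for Mrpl39 and 0.41 to 0.63 for Mrps25. All 4 calls also ended with limma-voom and in the fit of the 4 libraries alone. That of Mrpl39 ended without KO starved replicate 2 as well.

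After starvation, 11 members were higher and 17 lower in KO than in WT cells, 14.5% and 22.4% of the members against 27.8% and 26.8% of all genes, with a median of -0.09 against -0.02 over all genes. The libraries were apart in 62 members and in 89.6% of all genes. The fit of these 4 libraries alone gave 22 and 35, against 40.6% and 41.8% of all genes. With library sizes taken as total counts the counts were 7 and 20, against 24.9% and 30.3% of all genes. Under that scaling the median of all genes was -0.14 in place of -0.02. Of the 28 calls, 13 had also been made in rich medium in the same direction: Mrpl40, Mrpl50, Mrps18b, Mrps25, Mrps33 and Mrps6 higher, and Mrpl28, Mrpl54, Mrpl55, Mrps27, Mrps30, Mrps31 and Mrps36 lower. The matching share of repeated calls over all genes is not given here, so the count only names the genes. The genotype comparisons share no library. Over the 76 members their values had a correlation of 0.699 and the same sign in 78.9%, against 0.879 and 74.9% over all genes, as a description across genes. Mrpl55 stood at 10.7 and 13.4 CPM in WT starved and 3.77 and 4.002 CPM in KO starved libraries (-1.64 ± 0.21, adjusted p = 0.000554). Both media thus gave KO levels far under the WT levels. Mrps27, a small subunit protein with pentatricopeptide repeats, stood at 55.7 and 62.6 CPM against 21.0 and 22.5 CPM (-1.45 ± 0.16, adjusted p = 0.000347). It rose in WT cells on starvation and stayed near its rich level in KO cells (0.14 ± 0.17). Mrpl49 (-1.29 ± 0.14, adjusted p = 0.000315) and Mrps31 (-1.08 ± 0.19, adjusted p = 0.00242) were the next lowest.

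**Figure D4:**
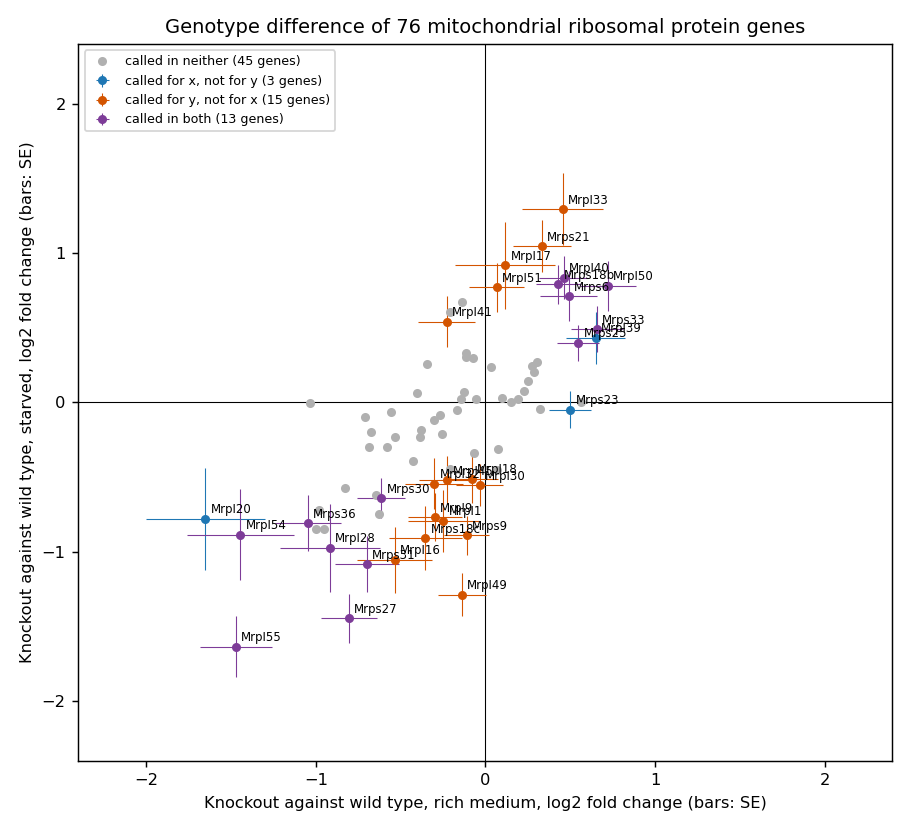
Log2 fold change of KO over WT for each member in rich medium (x) and after starvation (y), marked by call. Mrpl55 lies at the lower left in both (-1.47 and -1.64), and Mrpl33 is highest after starvation (1.29).

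Mrpl33 and Mrps21, which had fallen in starved WT cells, had the largest positive values of the KO comparison after starvation. Mrpl33 stood at 9.41 and 12.2 CPM in WT starved and 25.3 and 27.8 CPM in KO starved libraries, without overlap (1.29 ± 0.24, adjusted p = 0.00341). Mrps21 stood at 12.4 and 14.4 against 29.4 and 26.1 CPM (1.05 ± 0.17, adjusted p = 0.00205). Mrpl51 (0.77 ± 0.16, adjusted p = 0.00603) and Mrpl41 (0.54 ± 0.17, adjusted p = 0.0293) were higher too, so that 4 of the 5 that fell in starved WT cells were called higher in starved KO cells, and the fifth, Mrpl18, was lower (-0.51 ± 0.16, adjusted p = 0.0289), a call lost without any of the 6 libraries outside the KO rich pair (-0.53 to -0.50). These contrasts share the WT starved libraries, and the Mrpl51 call ended without WT starved replicate 1 (0.62, adjusted p = 0.0563). The tests of the difference between responses did not pass for Mrpl33 (0.84 ± 0.34, adjusted p = 0.147), Mrps21 (0.71 ± 0.24, adjusted p = 0.101), Mrpl51 (0.70 ± 0.23, adjusted p = 0.0907) or Mrpl41 (0.77 ± 0.24, adjusted p = 0.0794). The KO values of these genes on starvation were -0.17 for Mrpl33, -0.53 for Mrps21, -0.37 for Mrpl51 and -0.15 for Mrpl41, and 0 of the 4 passed. Mrpl17 (0.92 ± 0.29, adjusted p = 0.0314) and Mrpl40 (0.84 ± 0.14, adjusted p = 0.00242) were also higher; Mrpl17 lost its call without any single library outside the KO rich pair (0.82 to 1.02). Among the genes named for this comparison, the calls of Mrpl33, Mrps21, Mrpl40, Mrps18b, Mrpl49, Mrpl55, Mrps27, Mrps31 and Mrps9 held without any single library.

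**Figure D5:**
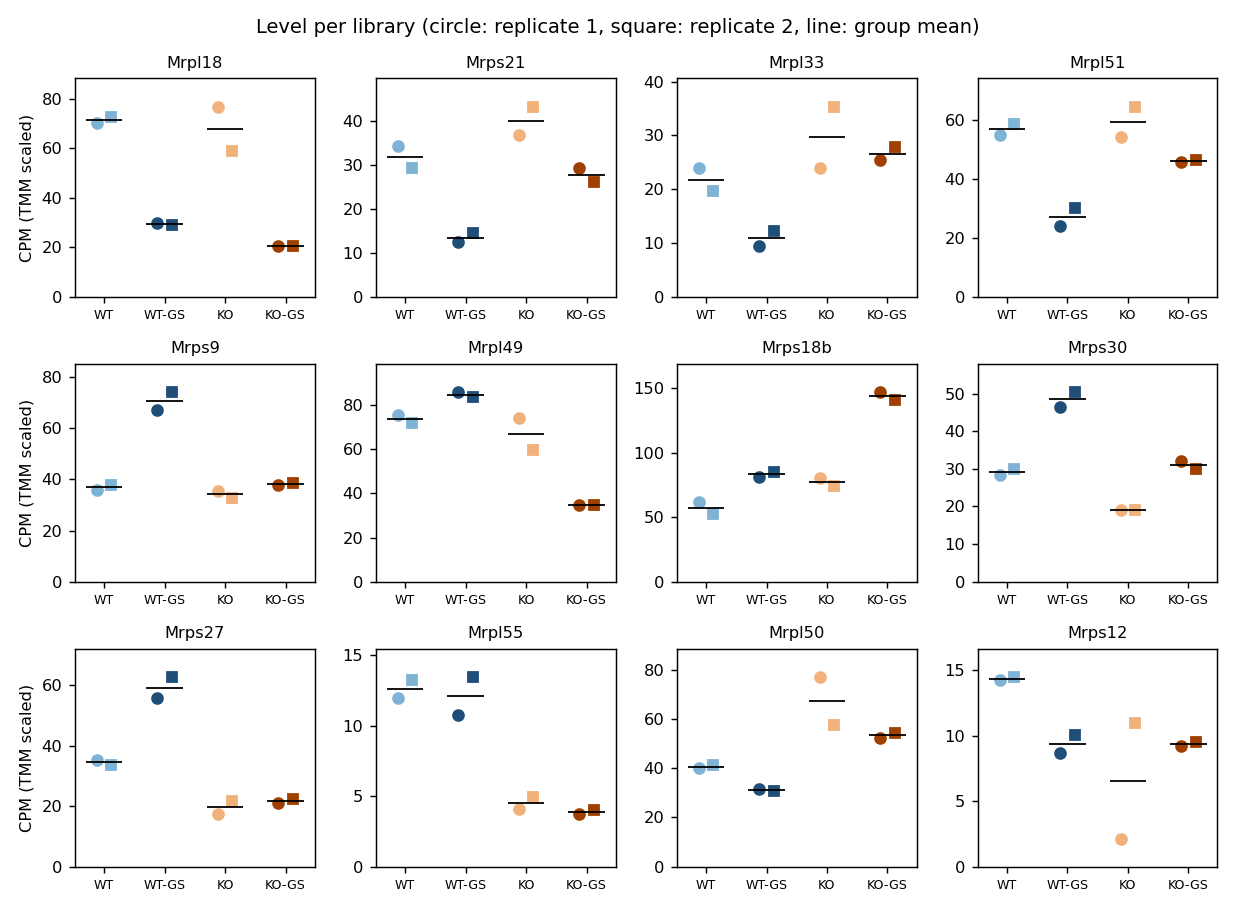
CPM of 12 members in each library (points) by group, with group means as lines. Mrpl18 falls on starvation in both genotypes, Mrpl49 is low in the KO starved pair (34.6 and 34.8 CPM), and Mrps12 has KO rich replicates at 2.09 and 10.9 CPM.

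Members with roles apart from the rest showed no common direction. Mrps30, of the large subunit despite its name, rose on starvation in both genotypes (0.73 ± 0.14 and 0.71 ± 0.14, adjusted p = 0.00702 and 0.0156) and was lower in the KO in both media (-0.62 ± 0.14 and -0.64 ± 0.14, adjusted p = 0.0107 and 0.00604). Mrps30 stood at 28.3 and 30.06 CPM in WT rich and 46.6 and 50.5 CPM in WT starved libraries. In the KO it stood at 19.0 and 19.1 CPM in rich and 32.2 and 30.04 CPM in starved libraries. The WT rich and KO starved pairs overlapped, and the other pairs were apart. Each of the 4 calls of Mrps30 ended without 2 or more of the single libraries, with log2 values of 0.68 to 0.79, 0.65 to 0.76, -0.66 to -0.58 and -0.70 to -0.59 in the order above. The Mrps18 paralogs differed from each other. Mrps18b was higher in the KO in both media (0.43 ± 0.13 and 0.79 ± 0.13, adjusted p = 0.0342 and 0.00206), Mrps18c was lower after starvation (-0.91 ± 0.21, adjusted p = 0.00943), and Mrps18a passed in no comparison. The Mrps18b call in rich medium ended without any single library outside the KO rich pair (0.31 to 0.54), and the Mrps18c call ended without the second WT starved (-0.76) or second KO starved library (-0.78). Mrpl12, a stalk protein that also binds the mitochondrial RNA polymerase, passed in none; its KO rich replicates were 52.9 and 120 CPM. Mrps12, of the decoding centre, passed in none, with KO rich replicates of 2.09 and 10.9 CPM and 14.2 and 14.5 CPM in WT rich libraries.

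Other members were likewise divided between the KO rich replicates. In 18 of 76 the pair differed by more than 2-fold, with replicate 2 the higher in 17, and in 0 members did any other pair differ so much. The spread of this pair was as wide over the whole table, with a standard deviation of log2 ratios of 0.741 over 13882 genes against 0.687 over members. Mrps12 (4.41-fold), Mrps11 (3.71-fold) and Mrps34 (3.44-fold) were the widest, and Mrps15 was the one gene with replicate 1 higher. Replicate 1 is the library of lowest depth, at which 3 counts are 0.369 CPM. Mrps11 and Mrpl46, which start 41 bases apart, differed in this: Mrps11 stood at 3.69 and 15.1 CPM in the KO rich pair, and Mrpl46 at 19.6 and 19.4 CPM. Mrpl46 ranged from 19.4 to 24.2 CPM over the 8 libraries and passed in no comparison.

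Subunits whose symbols are not of the Mrpl or Mrps form were counted as a list of their own. Of 7 such genes, Ict1, a peptidyl-tRNA hydrolase built into the large subunit (0.64 ± 0.15, adjusted p = 0.0165), and Dap3, a GTP-binding small subunit protein (0.60 ± 0.14, adjusted p = 0.0172), rose in starved WT cells (28.6%, against 14.8% of all genes), and 0 fell. Both calls ended without any one WT library (0.57 to 0.72 for Ict1, 0.54 to 0.65 for Dap3), and that of Dap3 also without KO starved replicate 2. In KO starvation 0 of 7 passed, against 8.44% higher and 9.77% lower of all genes. In rich medium Gadd45gip1 (-1.64 ± 0.33, adjusted p = 0.00694), Aurkaip1 (-1.03 ± 0.27, adjusted p = 0.02) and Chchd1 (-0.62 ± 0.17, adjusted p = 0.0228) were lower in the KO, and Ptcd3 (0.80 ± 0.18, adjusted p = 0.0111) and Dap3 (0.49 ± 0.14, adjusted p = 0.0275) were higher. Over all single libraries left out, values were -2.40 to -1.23 for Gadd45gip1, -1.58 to -0.72 for Aurkaip1, -0.87 to -0.44 for Chchd1, 0.47 to 1.04 for Ptcd3 and 0.32 to 0.59 for Dap3. The Gadd45gip1 call held without any single library, and the other 4 calls ended without either WT rich library. Those of Chchd1 and Dap3 also ended without either KO starved library, without WT starved replicate 2 and, for Dap3, without WT starved replicate 1. In the fit of the 4 libraries alone the calls of Aurkaip1, Chchd1, Ptcd3 and Dap3 ended. With limma-voom those of Aurkaip1, Chchd1 and Dap3 ended, and with total counts that of Dap3. Mrp63 passed in no comparison.

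Factors that assemble the mitochondrial ribosome rose in WT starvation in 8 of 22 genes and fell in 0, that is 36.4% and 0% against 14.8% and 18% of all genes. The smallest p-values were those of Ngrn, which binds the large subunit RNA (1.20 ± 0.16, adjusted p = 0.00193), the GTPase Noa1 (0.82 ± 0.17, adjusted p = 0.0115) and Eral1, a chaperone of the small subunit RNA (1.04 ± 0.23, adjusted p = 0.0137). The Ngrn call held without any single library, and those of Noa1 (0.76 to 0.88) and Eral1 (0.98 to 1.11) ended without any one WT library. In KO starvation 4 rose and 1 fell, 18.2% and 4.55% against 8.44% and 9.77% of all genes. The 1 that fell was Mterfd2 (-1.47 ± 0.15, adjusted p = 0.00197), the partner of a methyltransferase of the ribosomal RNA, at 58.5 and 49.8 CPM in KO rich against 16.0 to 21.5 CPM in the other 6 libraries. Mterfd2 was also the 1 assembly factor whose responses differed (-1.85 ± 0.21, adjusted p = 0.00311), 4.55% against 5.91% of all genes lower.

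Of 15 translation factors, 3 rose and 1 fell in starved WT cells, 20% and 6.67% against the same 14.8% and 18%. Mrrf, the recycling factor (0.84 ± 0.19, adjusted p = 0.0158), the initiation factor Mtif3 (0.50 ± 0.13, adjusted p = 0.0255) and the membrane insertase Oxa1l (0.62 ± 0.18, adjusted p = 0.04) were higher, and Lrpprc, which stabilises mitochondrial messenger RNAs, was lower (-0.49 ± 0.14, adjusted p = 0.034). All 4 calls ended without any one WT library, and those of Mtif3, Oxa1l and Lrpprc also without either KO starved library, with values of 0.81 to 0.87 for Mrrf, 0.43 to 0.57 for Mtif3, 0.55 to 0.68 for Oxa1l and -0.52 to -0.47 for Lrpprc. The Mtif3 call also ended with no filter, and that of Oxa1l with total counts and with the replicate block. In KO starvation 0 of 15 passed, against 8.44% higher and 9.77% lower of all genes. The response of Lrpprc differed between the genotypes (0.93 ± 0.20, adjusted p = 0.0256), 6.67% of the list against 7.43% of all genes higher. Its value was 0.78 to 1.14 over libraries left out, with the call lost without any of the 6 outside the KO rich pair. Of 11 genes that transcribe or maintain mitochondrial DNA, 8 rose in starved WT cells (72.7%) and 0 fell, against 14.8% and 18% of all genes. Among the 8 were Top1mt (1.20 ± 0.13, adjusted p = 0.00107) and Mgme1 (1.13 ± 0.15, adjusted p = 0.00181), whose calls held without any single library. In KO starvation 2 of 11 rose (18.2%, against 8.44% of all genes), Top1mt (0.66 ± 0.13, adjusted p = 0.0176) and Polg2 (1.48 ± 0.32, adjusted p = 0.0225). Both calls ended without any of the 6 libraries outside the KO rich pair. Over all single libraries left out, values were 0.59 to 0.72 for Top1mt and 1.20 to 2.13 for Polg2. The responses of 3 of the 11 differed, all more negative in the KO (27.3%, against 5.91% of all genes). These were Mterf, a transcription terminator (-1.48 ± 0.39, adjusted p = 0.0482), Peo1, the replicative helicase (-1.10 ± 0.18, adjusted p = 0.00942), and Mgme1, a nuclease (-1.10 ± 0.21, adjusted p = 0.0159). These 3 calls ended without any of the same 6 libraries, and that of Mterf also with RLE factors, a stricter filter, limma-voom and the replicate block. Over all single libraries left out, values were -1.77 to -1.13 for Mterf, -1.14 to -1.01 for Peo1 and -1.16 to -1.05 for Mgme1.

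Regulators of mitochondrial gene expression were mixed. Of 9 on the list, 0 rose and 2 fell in starved WT cells (22.2%), against 14.8% higher and 18% lower of all genes. The 2 that fell were Yy1 (-0.91 ± 0.18, adjusted p = 0.00866) and the coactivator gene Ppargc1b (-1.82 ± 0.44, adjusted p = 0.0192). Both calls were lost without any one WT library, where the value nearest 0 was -0.83 for Yy1 and -1.52 for Ppargc1b. Ppargc1b stood at 4.97 and 4.21 CPM in WT rich and 1.59 and 1.00 CPM in WT starved libraries, against 10.4 and 14.3 CPM in KO starved libraries. In KO starvation Myc (1.89 ± 0.12, adjusted p = 0.000557) and Pprc1 (0.64 ± 0.14, adjusted p = 0.0223) rose and 0 fell, 22.2% and 0% against 8.44% and 9.77% of all genes. The Myc call held without any single library but ended in the fit of the 4 KO libraries alone. That of Pprc1 ended without any of the 6 outside the KO rich pair, with values of 0.50 to 0.82 over all single libraries left out. Between genotypes, Myc was higher in the KO in rich medium (0.90 ± 0.12, adjusted p = 0.00103) and after starvation (2.78 ± 0.13, adjusted p = 7.68e-06), and both calls held without any single library.

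In rich medium Nrf1 (-0.94 ± 0.29, adjusted p = 0.0335), Pprc1 (-0.64 ± 0.14, adjusted p = 0.00905) and Ppargc1a (-2.06 ± 0.63, adjusted p = 0.0343) were lower in the KO. The KO replicates of Nrf1 were 25.7 and 51.6 CPM, and its call ended without any of the 6 libraries outside that pair, with limma-voom and in the fit of the 4 libraries alone (-1.55 to -0.58 over libraries left out). The Ppargc1a call ended without 7 of the 8 libraries and that of Pprc1 without either WT rich library. Over all single libraries left out, values were -3.32 to -0.92 for Ppargc1a and -0.83 to -0.53 for Pprc1. After starvation Ppargc1a was lower (-2.43 ± 0.53, adjusted p = 0.00684) and Ppargc1b higher (3.25 ± 0.44, adjusted p = 0.000791) in the KO; the Ppargc1a call ended without KO starved replicate 2 (-2.73 to -2.18 over libraries left out).

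Genes for proteins of the cytosolic ribosome were measured in the same libraries. Of 77 cytosolic ribosomal protein genes tested, 37 rose and 0 fell in WT starvation, with a median of 0.67, against 14 and 5 of 76 and a median of 0.20 for the mitochondrial set. These are 48.1% and 0% of the cytosolic set, against 14.8% and 18% of all genes. In KO starvation 1 cytosolic gene rose and 0 fell (1.3% and 0%, against 8.44% and 9.77% of all genes), with a median of 0.38. Nuclear genes of the respiratory chain and ATP synthase, whose partner subunits the mitochondrial ribosome makes, had 3 higher and 14 lower of 79 in WT starvation. These are 3.8% and 17.7%, against 14.8% and 18% of all genes, with a median of -0.06. No test of the difference between these lists was made.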

How the data were processed

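Whole-number counts per RefSeq transcript of the mm9 build were deposited by the authors for 8 libraries; the submitters' processing notes name TopHat2 2.0.9 and bedtools. The handling of strand and of reads with multiple matches was not given in the sources used here. Chromatin immunoprecipitation samples of the series were not used here. Of 31055 transcripts of 23366 symbols, each symbol was represented by the transcript with the highest total; 7 members had several. Members and lists were chosen with earlier results of these data known.

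In R 4.3.3, filterByExpr of edgeR 4.0.16 kept 13882 genes, among them all 76 members. With TMM scaling and 1 mean per group, a quasi-likelihood fit of the 8 libraries (biological coefficient of variation 18.5%) gave 5 contrasts, adjusted by Benjamini-Hochberg over all genes tested at a threshold of 0.05. The standard error is the log2 fold change divided by the square root of F. Levels of different genes are not compared, since transcript lengths were not used here. A gene was named if it was among the 4 called members with the largest rise or fall per contrast with libraries apart, had a special role, or was among the 3 genes of a list with the smallest p. The neighbours Tcp1, Fau and Syvn1, and Mrpl46, Mrps11, Mrpl41, Mrpl2, Mrps15, Mrps34, Col1a1, Fn1, Tubb3, Map2, Kdr, Pecam1, Tek, Emcn, Tie1 and the remaining called members, were chosen after their values were seen. Total counts of 8447014 to 28155431 put 3 counts at 0.369 to 0.104 CPM, counting error only. The fit was tested on simulated counts with 200 changed genes. In the simulation each gene had the same spread in all groups, unlike the data, where the KO rich pair was wider. The shares recovered therefore do not describe single contrasts with or without that pair. In the pairwise contrasts it recovered 13.7% to 30.4% of 2-fold changes and 72.2% to 88.4% of 4-fold changes. For the difference between responses it recovered 0% and 48.6%. A gene without a call may therefore have changed. Alternatives were DESeq2 1.42.0, voom of limma 3.58.1 with quality weights, RLE factors or total counts as scaling, all genes unfiltered or only genes with 5 CPM in 2 or more libraries, a replicate block, the transcript with the lowest total, only the 4 libraries compared, and each library left out. Replicates of a group differed beyond sampling noise (chi-square per degree of freedom 4.35 to 94.6) and were counted as separate libraries. Promoter motifs were searched in RefSeq sequences on both strands with Python 3.11.15.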

Additional observations from a re-analysis of the deposited data

Results flagged for a closer look

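The starvation response of Mrpl49 differed between the genotypes in a test of the difference itself (-1.15 on the log2 scale, knockout minus wild type, edgeR adjusted p = 0.0129). The gene was low in both knockout starved libraries, at 34.6 and 34.8 CPM, and at 59.7 to 86.0 CPM in the other 6.

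The response of Mrps9 differed in the same test (-0.78, edgeR adjusted p = 0.0364). This call ended with a replicate block (adjusted p = 0.0617), with no filter (0.071), with limma-voom (0.0926) and without any single library of the 6 outside the knockout rich pair; that of Mrpl49 ended in the last of these and held in the first 3. Mrps9 was high in both wild-type starved libraries, at 67.2 and 74.2 CPM, and at 32.9 to 38.6 CPM in the other 6.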

How the results depend on the processing

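Counts below are of members called higher and lower. For wild-type starvation (14 and 5) limma-voom with quality weights gave 38 and 17, against 33.8% and 33.9% of all genes. The fit of only the 4 libraries compared gave 39 and 18, against 36.4% and 35.6%. For knockout starvation (6 and 2) DESeq2 gave 5 lower, limma-voom 1 higher, and the 4 libraries alone 0 and 0; single libraries left out gave 0 to 41 and 1 to 13. Of all genes in knockout starvation, DESeq2 called 14.5% lower and limma-voom 3.75% higher, against 9.77% and 8.44% in the edgeR fit of 8 libraries. The 4 libraries alone called 0% of all genes. More of all genes were called without a knockout rich library, and fewer without any other library. For the knockout in rich medium (8 and 8) total counts gave 5 higher (20.8% of all genes) and DESeq2 14 lower (23%). No filter gave 5 and 13 (17.5% and 17.1% of all genes). Limma-voom gave 0 and 2 (15.9% and 9.27%), and the 4 libraries alone 0 and 3 (13.2% and 11.4%). For the knockout after starvation (11 and 17) total counts gave 7 higher (24.9% of all genes). Limma-voom and the 4 libraries alone each gave 22 and 35. Of all genes limma-voom called 39.8% and 40.9%, and the 4 libraries alone 40.6% and 41.8%. For the difference between responses (0 and 2) no filter and limma-voom each gave 1 lower and DESeq2 3 and 4; single libraries left out gave 0 to 36 and 0 to 15. For the difference, DESeq2 called 11.3% of all genes higher and 9.44% lower, against 7.43% and 5.91% in the edgeR fit of 8 libraries. No filter called 4.21% of all genes lower and limma-voom 5.76%. Here too, more of all genes were called without a knockout rich library and fewer without any other library. The highest counts for wild-type starvation came from fits that lacked a knockout rich library or gave that pair little weight (voom weights 0.103 and 0.149, against 1.64 or more elsewhere). Replicate differences were little correlated between groups (-0.026 to 0.145), which cannot show whether replicate numbers mark a shared culture or day. With a replicate block the counts were 13 and 5, 6 and 2, 6 and 8, 11 and 17, and 0 and 1, in the same order. The shares of all genes were then 13.2% and 16.5%, 7.28% and 7.93%, 21.9% and 19.9%, 27.1% and 25.9%, and 6.36% and 4.38%. Signs turned, each with a call, for 4 genes when a knockout rich library was left out: without replicate 1 Ptcd3 had 0.20 in knockout starvation (-0.35 without replicate 2) and Mrpl12 0.21 in the rich genotype comparison (-0.93), and without replicate 2 Polg had 0.36 in knockout starvation (-0.26 without replicate 1) and Mrpl17 -0.48 in the rich comparison (0.48). The cause was not tested. Medians over members kept their sign under each alternative run except for the difference between responses, which without knockout rich replicate 1 was -0.02. Some moved by over 1.5 times. Knockout starvation had 0.22, and 0.38 without knockout rich replicate 2. The rich comparison had -0.19, and -0.33 without that library. The starved comparison had -0.09, -0.03 without wild-type starved replicate 2 and -0.21 with total counts. Wild-type starvation had 0.20, and 0.13 without wild-type starved replicate 2. The difference had 0.07, 0.29 without knockout rich replicate 2 and 0.02 to 0.12 in the settings not yet named. The medians of all genes moved as well without knockout rich replicate 2. They were 0.09 in knockout starvation, -0.12 in the rich comparison and 0.18 for the difference, against 0, 0.0007 and 0.005 with all libraries. Within the difference between responses, the Mrps9 call was the member call lost with no filter, limma-voom and the replicate block. In the rich comparison the Mrpl40 call was lost with these alternatives too.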
